A study of Homo sapiens with 24 samples.

Results

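The mRNAs described here are 10 genes of the endoplasmic reticulum (ER), namely HSPA5, HSP90B1, HYOU1, CALR, CANX, P4HB, PDIA3, PDIA4, PDIA6 and SEC61B. They were taken from a fixed list of symbols by the Ensembl gene ID of each row, and make up 10 of the 61853 gene rows of the deposited table. All 10 passed the filter on low counts, which left 18916 genes for testing. The first 9 encode chaperones or folding enzymes, whereas SEC61B encodes a subunit of the protein channel and is no chaperone.

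A sucrose density gradient, which separates particles by their sedimentation, was collected in fractions, and RNA of fractions 3, 4, 7 and 8 was sequenced after ribosomal RNA depletion. All cells were 293T, a human embryonic kidney line, with DIS3 knocked down by the hairpin DIS3-sh2. The cells of one genotype carried the DIS3 D146N rescue and those of the other the DIS3 WT rescue. DIS3 is a catalytic subunit of the RNA exosome, and the series concerns where circular RNAs lie in the gradient, which gene counts do not show. The 8 groups were D146N fractions 3, 4, 7 and 8 and WT fractions 3, 4, 7 and 8, with 3 libraries each, which the series' design text calls biological replicates. No group of cells without the knockdown or without a rescue was analysed here, and the labels do not say whether a rescue line was 1 clone or from which end of the gradient the fractions were numbered. Genotype and a different fraction numbering therefore cannot be told apart in these libraries.

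The ER lumen is where secreted and membrane proteins fold. HSP70-type chaperones such as the HSPA5 product BiP bind unfolded chains, the lectins calreticulin and calnexin hold glycoproteins, and protein disulfide isomerases form and rearrange disulfide bonds. mRNAs for secretory proteins are translated on ribosomes docked at the SEC61 channel, and the unfolded protein response raises transcription of many chaperone genes through ER stress response elements (ERSE) in their promoters.

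That promoter element is shown because it is the known shared control sequence of this gene family and was not used to choose the genes. The ERSE was searched as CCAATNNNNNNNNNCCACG, and the related ERSE-II as ATTGGNCCACG, on both strands, in RefSeq windows of GRCh38.p14 from 250 bases before to 50 bases after each annotated start. The spellings were counted separately, so that overlapping matches would count under each. The windows covered 9 of the 10 genes (not PDIA3). Capitals mark the motif, and each sequence runs 5′ to 3′ along the strand of its gene, so that a match on the opposite strand reads as the reverse complement.
HSPA5 ERSE, chr9:125241391-125241409, minus strand: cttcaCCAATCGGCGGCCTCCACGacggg
HSP90B1 distal ERSE, chr12:103930216-103930234, plus strand: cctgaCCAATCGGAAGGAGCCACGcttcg
HSP90B1 proximal ERSE, opposite orientation, chr12:103930321-103930339, plus strand: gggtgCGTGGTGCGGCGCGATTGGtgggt
CALR ERSE, opposite orientation, chr19:12938384-12938402, plus strand: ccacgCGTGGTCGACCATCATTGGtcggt
CANX ERSE, chr5:179698778-179698796, plus strand: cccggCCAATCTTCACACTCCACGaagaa
PDIA6 ERSE, chr2:10812853-10812871, minus strand: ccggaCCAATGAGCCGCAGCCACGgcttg
HYOU1 ERSE-II, opposite orientation, chr11:119057274-119057284, minus strand: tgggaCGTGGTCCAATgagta
HYOU1 second ERSE-II, opposite orientation, chr11:119057380-119057390, minus strand: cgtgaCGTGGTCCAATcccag

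The ERSE stood in the windows of 5 of the 9 genes, HSPA5, HSP90B1, CALR, CANX and PDIA6, against 25 of 27305 genes with a window (0.0916%). These 5 are among the 25. The element is known from this gene family, so the matches are no independent result. The HSPA5 match began 66 bases before the annotated start. The ERSE-II stood in the HYOU1 window at 2 places, against 19 of 27305 genes (0.0696%), HYOU1 among them. Neither spelling was found in these windows of P4HB, PDIA4 or SEC61B, which says nothing of other sites or of binding. A match is a description of the letters and not evidence of a site in use.

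Library totals ran from 21.2 to 33 M counts (M for 1000000), and the RNA make-up of the fractions differed widely. The 10 most abundant rows held 48.6 to 50.2% of counts in D146N fractions 7 and 8, 76.4 to 77.6% in D146N fractions 3 and 4, 65.6 to 73.1% in WT fractions 7 and 8, and 51.4 to 52.8% in WT fractions 3 and 4. TMM scaling factors, which set the typical gene level across libraries, ran from 2.74 to 2.82 in D146N fractions 7 and 8, 0.355 to 0.374 in D146N fractions 3 and 4, 0.349 to 0.531 in WT fractions 7 and 8, and 2.46 to 2.55 in WT fractions 3 and 4. Counts scaled to a library total of 1000000 (CPM) and fold changes after TMM are therefore different quantities here, and each value below names its scale. WT fraction 8 replicate 3 stood apart, with a chi-square per gene of 143 to 147 against its fellow replicates, while other replicate pairs gave 1.86 to 6.03, and the tested contrasts of single fractions and fraction pairs that use it are also given without it. DIS3 itself had 86.7 to 115 CPM in D146N fractions 7 and 8, 7.79 to 9.63 in D146N fractions 3 and 4, 4.54 to 6.28 in WT fractions 7 and 8, and 91.4 to 112 in WT fractions 3 and 4. Gene counts do not tell the rescue construct from the endogenous gene, so this does not check the labels. VIM and IGF2BP1, which 293T cells express, were read in all 24 libraries, while the T cell gene CD3E and the pancreatic genes PRSS1 and INS were at 0 in all 24. Summed hepatocyte markers (5 genes, chiefly ALB and AFP) had 238 to 266 CPM in D146N fractions 7 and 8, 9.59 to 13.3 in D146N fractions 3 and 4, 15 to 58.2 in WT fractions 7 and 8, and 232 to 259 in WT fractions 3 and 4, and their part in the values below was not tested.

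The 9 chaperone and folding enzyme mRNAs took a far larger share of counts in D146N fractions 7 and 8 than in D146N fractions 3 and 4, and a far smaller share in WT fractions 7 and 8 than in WT fractions 3 and 4. Their summed level averaged 1994 ± 18.3 CPM in D146N fractions 7 and 8 and 157 ± 6.4 CPM in D146N fractions 3 and 4 (SD, n = 6 each). It averaged 123 ± 14.7 CPM in WT fractions 7 and 8 and 1851 ± 29.3 CPM in WT fractions 3 and 4 (SD, n = 6 each). SEC61B did not share this pattern and differed little between fractions in CPM. Between genotypes, fewer cells with an mRNA and less of that mRNA per cell cannot be told apart in sequenced bulk fractions. A CPM is a share of the library, not an amount per fraction.

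HSPA5 (ENSG00000044574.9, chr9:125234853-125241343 in GRCh38.p14) encodes BiP, the main HSP70 of the ER lumen. In D146N it had 18.4, 20.3 and 19.1 CPM in fraction 3, 21.1, 20.1 and 20.2 in fraction 4, 299.5, 292 and 298 in fraction 7, and 285, 286 and 296 in fraction 8. In WT it had 288, 287 and 301 CPM in fraction 3, 295, 287 and 287 in fraction 4, 10.8, 12.5 and 12.3 in fraction 7, and 11.5, 12 and 15.3 in fraction 8. Every library of D146N fractions 7 and 8 and of WT fractions 3 and 4 lay above every library of the other 4 groups. The group means ran, from the highest, 297 CPM for fraction 7 of D146N, 292 for fraction 3 of WT, 289.5 for fraction 4 of WT and 289 for fraction 8 of D146N, then 20.5 for fraction 4 of D146N, 19.3 for fraction 3 of D146N, 12.9 for fraction 8 of WT and 11.9 for fraction 7 of WT. Neighbouring groups in that order overlapped within the first 4, between D146N fractions 4 and 3, and between WT fractions 8 and 7.

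HSP90B1 (ENSG00000166598.16, chr12:103930410-103947926) encodes GRP94, the HSP90 of the ER lumen. It had 331 to 364 CPM (median 338) in D146N fractions 7 and 8 and 27.2 to 29.3 (median 28.8) in D146N fractions 3 and 4. In WT it had 17.5 to 21.3 CPM (median 20) in fractions 7 and 8 and 393 to 406 (median 397) in fractions 3 and 4. Unlike HSPA5, its high libraries did not overlap between genotypes, and those of WT were the higher. How many of all genes were separated in that way was not counted. On library totals, edgeR called 1013 of 18916 genes lower in D146N fractions 7 and 8 than in WT fractions 3 and 4 (adjusted p under 0.05).

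HYOU1 (ENSG00000149428.21, chr11:119044188-119057205) encodes GRP170, a large HSP70 relative that acts as a nucleotide exchange factor of BiP. Its CPM were 105 to 114 (median 108) in D146N fractions 7 and 8 and 5.77 to 7.34 (median 6.83) in D146N fractions 3 and 4. Its CPM were 4.09 to 7.2 (median 4.53) in WT fractions 7 and 8 and 82.6 to 89.4 (median 86.9) in WT fractions 3 and 4. The highest WT value of fractions 7 and 8 came from WT fraction 8 replicate 3, at 1.64 times the mean of its 2 fellow replicates.

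CALR (ENSG00000179218.15, chr19:12938609-12944489) encodes calreticulin, the soluble lectin chaperone. It had 206 to 223 CPM (median 212) in D146N fractions 7 and 8 and 16.9 to 21.9 (median 20.3) in D146N fractions 3 and 4. In WT it had 16, 16.7 and 17.4 CPM in fraction 7, 18.3, 16.1 and 29.7 in fraction 8, and 163 to 179 (median 169) in fractions 3 and 4. The value of 29.7 CPM was that of WT fraction 8 replicate 3, which held 1.73 times the mean of the other 2. CANX (ENSG00000127022.16, chr5:179678656-179731641) encodes calnexin, the membrane-bound lectin chaperone. It had 527 to 543 CPM (median 536) in D146N fractions 7 and 8 and 42.6 to 49.7 (median 44.7) in D146N fractions 3 and 4. It had 33.6 to 44.9 CPM (median 37.5) in WT fractions 7 and 8 and 487 to 504 (median 499) in WT fractions 3 and 4. For both lectins, low and high libraries were separate in each genotype.

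P4HB (ENSG00000185624.16, chr17:81843166-81860535) encodes PDI itself, also the beta subunit of prolyl 4-hydroxylase. It had 172 to 194 CPM (median 180.5) in D146N fractions 7 and 8 and 12.6 to 15 (median 14.1) in D146N fractions 3 and 4, against 8.66 to 16.2 (median 10.4) in WT fractions 7 and 8 and 151 to 177 (median 159.9) in WT fractions 3 and 4. PDIA3 (ENSG00000167004.14, chr15:43746438-43773278) encodes ERp57, the isomerase that works with both lectins. It had 100.4 to 108 CPM (median 103) in D146N fractions 7 and 8 and 6.86 to 7.84 (median 7.4) in D146N fractions 3 and 4, against 5.46 to 8 (median 6.01) in WT fractions 7 and 8 and 76.8 to 86.3 (median 83.9) in WT fractions 3 and 4. PDIA4 (ENSG00000155660.11, chr7:149003051-149028505) encodes ERp72. It had 67.6 to 78.3 CPM (median 70.6) in D146N fractions 7 and 8 and 5.26 to 5.79 (median 5.63) in D146N fractions 3 and 4, against 3.71 to 4.88 (median 4.22) in WT fractions 7 and 8 and 50.9 to 58.4 (median 56.8) in WT fractions 3 and 4. PDIA6 (ENSG00000143870.13, chr2:10783391-10837712) encodes P5, an isomerase found with BiP. It had 135 to 153 CPM (median 148) in D146N fractions 7 and 8 and 8.75 to 10.7 (median 9.49) in D146N fractions 3 and 4, against 6.19 to 7.49 (median 6.46) in WT fractions 7 and 8 and 101 to 115 (median 106) in WT fractions 3 and 4. In all 4 isomerases the high and low fractions of a genotype did not overlap. For PDIA3, PDIA4 and PDIA6 the high libraries of D146N also lay above those of WT, whereas those of P4HB overlapped. HYOU1, CALR, CANX and SEC61B were likewise higher without overlap in D146N fractions 7 and 8 than in WT fractions 3 and 4. The share of all genes so separated was not counted, so whether such a separation is unusual is not known. On library totals, edgeR called 3198 of 18916 genes higher in D146N between these groups (adjusted p under 0.05). That is a different measure, and by it CANX was not called (edgeR adjusted p = 0.125).

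SEC61B (ENSG00000106803.10, chr9:99222282-99230615) encodes the beta subunit of the SEC61 channel, a small tail-anchored protein. In D146N it had 52, 55.4 and 51.7 CPM in fraction 3, 54.8, 50.3 and 52.9 in fraction 4, 80, 78.5 and 80.3 in fraction 7, and 85.7, 75.6 and 78.4 in fraction 8. In WT it had 56.6, 58.6 and 51.1 CPM in fraction 3, 52.3, 56.5 and 62.3 in fraction 4, 73.6, 74.4 and 75.2 in fraction 7, and 74.2, 72.8 and 61.7 in fraction 8. Fractions 7 and 8 were thus higher in CPM in both genotypes, without overlap in D146N and with an overlap in WT that came from replicate 3 of fraction 8. The counts behind these levels ran from 116 for PDIA4 to 13479 for CANX in a library, and the lowest carries a counting error of 9.26%.

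**Figure D1:**
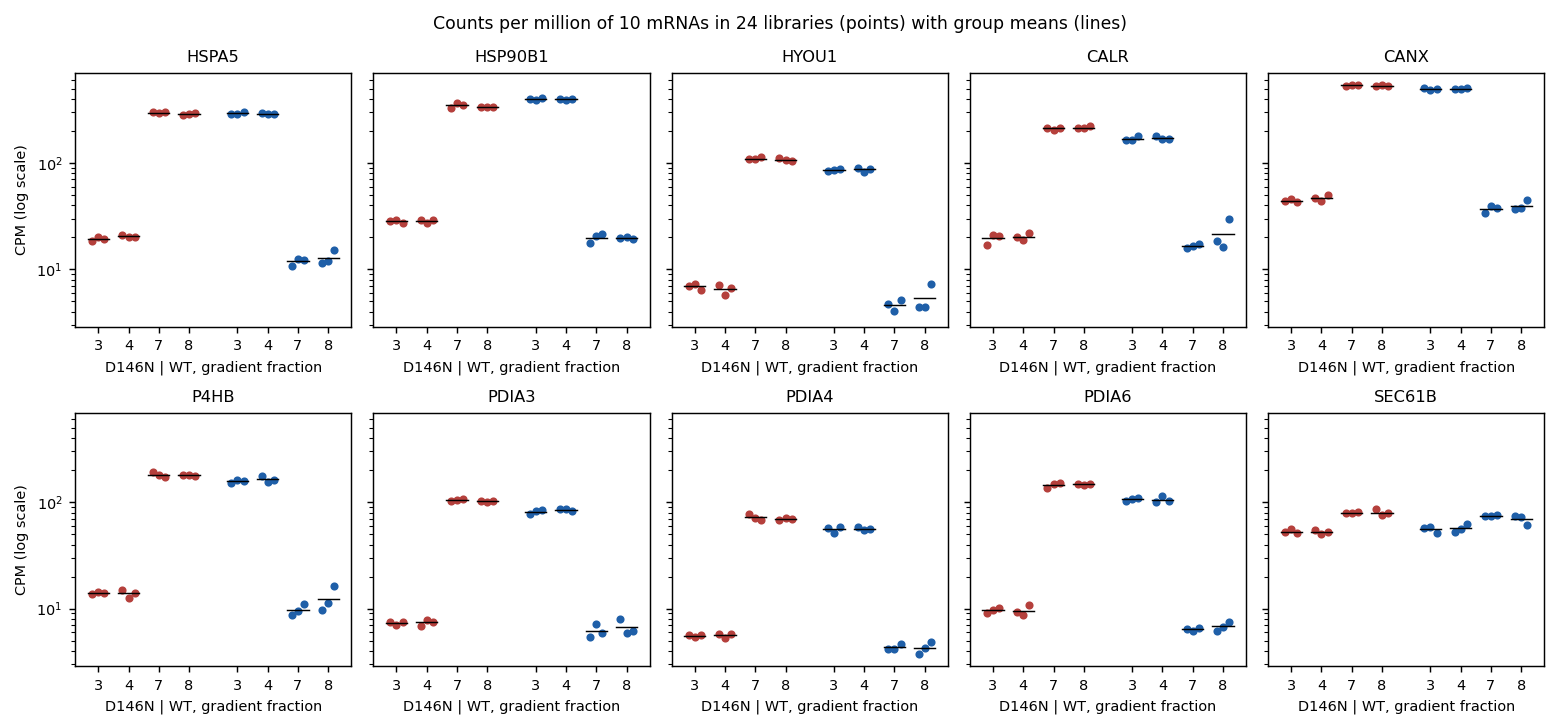
CPM of the 10 mRNAs on a log axis, by gradient fraction, for D146N (red, left) and WT (blue, right); points are libraries and lines are means of 3. The 9 folding genes sit high in D146N fractions 7 and 8 and in WT fractions 3 and 4 and low in the other 4 groups, while SEC61B stays between 50.3 and 85.7 CPM.

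As ratios of mean CPM, the 9 folding genes were 10.7 (CALR) to 16.2 (HYOU1) times higher in D146N fractions 7 and 8 than in D146N fractions 3 and 4. SEC61B was 1.51 times higher. All 10 mRNAs were higher without overlap of the 6 and 6 libraries, as were 81.1% of all genes tested. In WT the same ratio ran the other way, from 0.0426 for HSPA5 to 0.112 for CALR, so that HSPA5 was 23.5 times and CALR 8.94 times higher in WT fractions 3 and 4. Those 9 genes were lower in WT fractions 7 and 8 without overlap, as were 73.5% of all genes tested, and SEC61B stood at 1.28 times with overlap. A separation in CPM was thus the common state of genes in these libraries.

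After TMM, which compares each gene with the typical gene, the question was whether these mRNAs moved more or less than the rest. In D146N fractions 7 and 8 against 3 and 4, the edgeR quasi-likelihood test called all 10, with 9 higher (29.9% of genes were called higher) and SEC61B lower (30.4% called lower). HYOU1 rose by 1.09 ± 0.06 on the log2 scale (SE, adjusted p = 1.35e-16), PDIA6 by 1.01 ± 0.06 (adjusted p = 8.75e-16), HSPA5 by 0.96 ± 0.05 (adjusted p = 2.28e-17) and PDIA3 by 0.90 ± 0.08 (adjusted p = 3.11e-11). P4HB (0.77), PDIA4 (0.75), HSP90B1 (0.67), CANX (0.64) and CALR (0.50) rose less on the same log2 scale. SEC61B fell by 2.33 ± 0.09 (adjusted p = 2.55e-21) relative to the typical gene. The median log2 fold change was 0.76 over the 10 mRNAs and 0.09 over all genes. Ranked among all genes by log2 fold change, the 9 stood from percentile 72.2 for CALR to 93.3 for HYOU1, and SEC61B at 10.5.

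In WT fractions 7 and 8 against 3 and 4, all 10 were called again with the directions turned round, 9 lower (39.2% of genes were called lower) and SEC61B higher (34.7% called higher). The log2 fold change was -1.88 ± 0.05 for HSPA5 (SE, edgeR adjusted p = 7.23e-26), -1.65 ± 0.07 for HSP90B1 (adjusted p = 5.92e-21) and -1.45 ± 0.07 for HYOU1 (adjusted p = 2.79e-20). PDIA6 (-1.33), P4HB (-1.21), CANX (-1.03), PDIA4 (-1.02) and PDIA3 (-1.01) followed. CALR fell least, at -0.51 ± 0.06 (adjusted p = 4.2e-09), and stood at -0.58 without WT fraction 8 replicate 3. SEC61B rose by 3.05 ± 0.09 (adjusted p = 1.58e-24), and by 3.14 without that library. Without it the 9 folding genes ran from -0.58 for CALR to -1.87 for HSPA5. The median log2 fold change was -1.12 over the 10 mRNAs and -0.17 over all genes. Ranked among all genes by log2 fold change, the 9 folding genes stood from percentile 5.75 for HSPA5 to 39 for CALR, and SEC61B at 91.4. CALR thus lay nearest the middle of all genes.

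On library totals, with no TMM factor, the typical gene itself moved by 2.99 on the log2 scale in D146N and by -2.82 in WT. The 9 folding genes then moved by 3.42 (CALR) to 4.01 (HYOU1) in D146N and by -3.17 (CALR) to -4.55 (HSPA5) in WT, in the same directions as after TMM. SEC61B was higher in fractions 7 and 8 on this scale in both genotypes, by 0.59 ± 0.06 in D146N and 0.36 ± 0.06 in WT (log2, SE), so its direction in D146N depends on the scaling. On both scales its change lay below that of the typical gene in D146N and above it in WT.

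The contrast of fractions 7 and 8 with 3 and 4 differed between genotypes for all 10 mRNAs (the edgeR test of the difference, D146N minus WT). It was higher for 9, where 41.5% of genes were called higher, and lower for SEC61B, where 35.6% were called lower. The difference was 2.83 ± 0.08 for HSPA5 (log2, SE, adjusted p = 3.9e-27), 2.54 ± 0.09 for HYOU1, 2.34 ± 0.09 for PDIA6 and 2.31 ± 0.10 for HSP90B1. It was smallest for CALR, at 1.01 ± 0.09 (adjusted p = 1.3e-12), and 1.09 without WT fraction 8 replicate 3, when that of HSPA5 was 2.84. For SEC61B it was -5.38 ± 0.13 (adjusted p = 1.3e-27) after TMM (-5.46 without that library) and 0.24 ± 0.08 on library totals, where the median of all genes was 5.86.

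**Figure D2:**
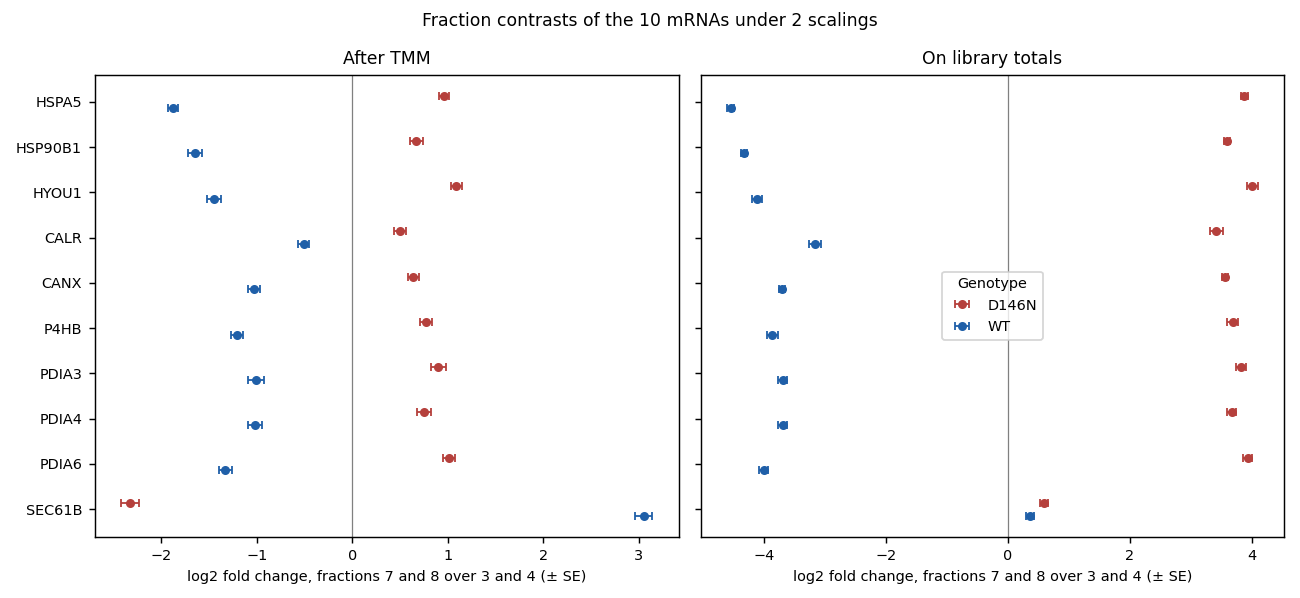
Log2 fold change of fractions 7 and 8 over 3 and 4 with its standard error, for D146N (red) and WT (blue), after TMM (left) and on library totals (right). The 9 folding genes lie right of 0 in D146N and left of 0 in WT on both scales, and SEC61B is opposite to them after TMM but at 0.59 in D146N and 0.36 in WT on library totals.

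At a fixed fraction label, D146N was compared with WT in 3 libraries each. In fraction 3, 9 mRNAs were lower in D146N (23.9% of genes called lower) and SEC61B was higher (25.9% called higher). In fraction 4 the same split was found, against 22.8% of genes called lower and 25.7% called higher. HSPA5 stood at -1.14 ± 0.08 in fraction 3 and -1.04 ± 0.08 in fraction 4 (log2 after TMM, SE, edgeR adjusted p = 4.48e-15 and 4.83e-14), whereas CALR stood at -0.33 ± 0.09 and -0.31 ± 0.09 (adjusted p = 0.00162 and 0.00369). In fraction 7, 9 mRNAs were higher (32.4% of genes called higher) and SEC61B was lower (31.2% called lower), and in fraction 8 the same again (32.5% called higher and 32.8% called lower). HSPA5 rose by 1.70 ± 0.08 in fraction 7 and 1.78 ± 0.08 in fraction 8, PDIA6 by 1.57 ± 0.09 and 1.72 ± 0.09, and HYOU1 by 1.62 ± 0.09 and 1.65 ± 0.09. SEC61B was higher in D146N by 2.71 ± 0.13 in fraction 3 and 2.66 ± 0.13 in fraction 4, and lower, at -2.85 ± 0.13 in fraction 7 and -2.55 ± 0.13 in fraction 8. Without WT fraction 8 replicate 3, the fraction 8 values were 1.75 for HSPA5, 1.64 for PDIA6, 1.75 for HYOU1 and -2.74 for SEC61B, and all 10 mRNAs were still called. On library totals its differences were -0.06, -0.11, 0.10 and 0.20 in fractions 3, 4, 7 and 8, of which that of fraction 8 was called.

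The level of SEC61B relative to the other 9 within a library needs no scaling. The log2 CPM of SEC61B minus the mean log2 CPM of the 9 averaged 1.95 ± 0.03 in D146N and -1.52 ± 0.14 in WT in fraction 3 (SD, n = 3 each). It averaged 1.92 ± 0.05 in D146N and -1.50 ± 0.15 in WT in fraction 4, -1.22 ± 0.02 in D146N and 2.88 ± 0.07 in WT in fraction 7, and -1.19 ± 0.09 in D146N and 2.65 ± 0.34 in WT in fraction 8. In each fraction the 3 libraries of a genotype lay apart from those of the other, with differences of 3.47, 3.42, -4.10 and -3.84 (D146N minus WT). The exact two-sided permutation test gave p = 0.1 in each fraction, the smallest that 3 against 3 can give, so the test cannot pass 0.05. WT fraction 8 replicate 3 held the lowest value of its group, 2.25, beside 2.86 and 2.83, and without it the difference in fraction 8 was -4.04. As a share of the summed CPM of the 10 mRNAs, SEC61B held 25.6 ± 0.305, 24.9 ± 0.646, 3.81 ± 0.0649 and 3.88 ± 0.244% in D146N fractions 3, 4, 7 and 8. It held 2.92 ± 0.252, 2.98 ± 0.281, 39.1 ± 1.39 and 35.2 ± 5.37% in the same fractions of WT. The 3 libraries of WT fraction 8 held 38.6, 38.1 and 29%, the last being replicate 3.

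**Figure D3:**
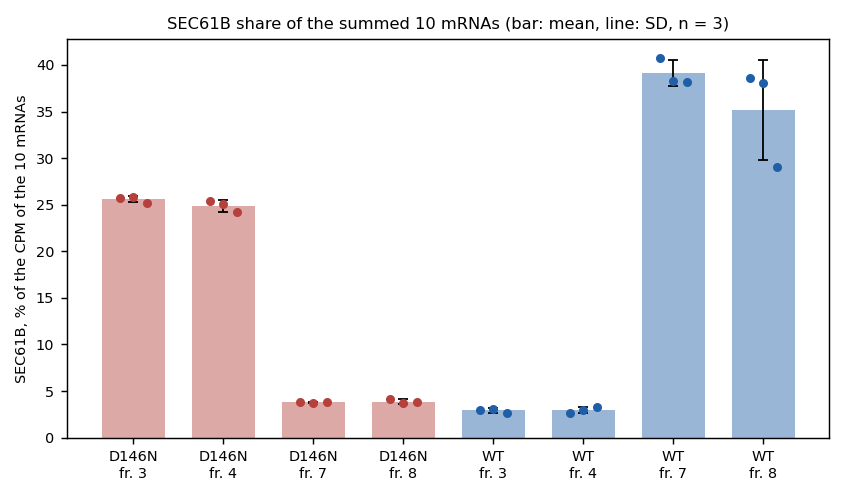
Share of SEC61B in the summed CPM of the 10 mRNAs, in percent, for D146N (red, left) and WT (blue, right) by fraction; bars are means, lines are SD and points are the 3 libraries. The share is 24.9 to 25.6% in D146N fractions 3 and 4 and 35.2 to 39.1% in WT fractions 7 and 8, against 2.92 to 3.88% in the other 4 groups.

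Neighbouring fractions of a genotype were not told apart at an adjusted p under 0.05. No mRNA of the 10, and 0% of all genes, were called by edgeR between fractions 4 and 3 or between 8 and 7 in either genotype. At an unadjusted edgeR p under 0.05 there were 753 of 18916 genes between D146N fractions 4 and 3 and 668 between D146N fractions 8 and 7. There were 849 between WT fractions 4 and 3, and 1726, the most, between WT fractions 8 and 7. DESeq2 also called none of the 10 mRNAs. The contrast of WT fractions 8 and 7 includes WT fraction 8 replicate 3, and the count of 1726 genes was not repeated without that library. Without that library 0 of the 10 mRNAs were called there, and HSPA5 stood at -0.04, against -0.09 with it (log2 after TMM). HSPA5 differed by 0.08 ± 0.08 between D146N fractions 4 and 3 and by -0.01 ± 0.07 between WT fractions 4 and 3 (log2 after TMM, SE).

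Further comparisons crossed the fraction labels, because D146N fractions 7 and 8 and WT fractions 3 and 4 were known from earlier results to be alike in make-up, as were the remaining pairs of fractions. The labels do not give this pairing. Between D146N fractions 7 and 8 and WT fractions 3 and 4, 5 mRNAs were higher (6.94% of genes were called higher), 1 was lower (10.4% called lower) and 4 did not pass. SEC61B rose by 0.36 ± 0.08 (log2 after TMM, SE, edgeR adjusted p = 0.00302), PDIA6 by 0.31 ± 0.06 (adjusted p = 0.000231), PDIA4 by 0.20 ± 0.06, HYOU1 by 0.18 ± 0.06 and CALR by 0.18 ± 0.06 (adjusted p = 0.0333, and 0.0502 without D146N fraction 8 replicate 3). HSP90B1 fell by 0.36 ± 0.07 (adjusted p = 0.000152). HSPA5 (-0.14), CANX (-0.04), PDIA3 (0.17) and P4HB (0.02) were not called, with adjusted p of 0.0581, 0.66, 0.137 and 0.88. HSPA5 was called with DESeq2 (adjusted p = 0.000634) and with only the groups compared (adjusted p = 1.04e-05). PDIA3 was called on library totals (adjusted p = 0.000573) and with only the groups compared (adjusted p = 0.000257).

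Between D146N fractions 3 and 4 and WT fractions 7 and 8, 9 mRNAs were higher (17.0% of genes called higher) and SEC61B was lower (12.1% called lower). HSPA5 rose by 0.78 ± 0.06 (log2 after TMM, SE, edgeR adjusted p = 3.64e-13), PDIA6 by 0.64 ± 0.07 and HSP90B1 by 0.62 ± 0.07. SEC61B fell by 0.37 ± 0.08 (adjusted p = 0.00107). Without WT fraction 8 replicate 3 the values were 0.76 for HSPA5, 0.59 for PDIA6, 0.53 for HSP90B1 and -0.47 for SEC61B. CALR at 0.19 ± 0.06 (adjusted p = 0.0222) and PDIA3 at 0.28 ± 0.09 (adjusted p = 0.0188) were the calls nearest the threshold. Both calls were lost on library totals (adjusted p = 0.634 for CALR and 0.0532 for PDIA3), with median-of-ratios factors (0.172 and 0.085), with DESeq2 (0.142 and 0.0833) and with only the groups compared (0.134 and 0.0687). Without WT fraction 8 replicate 3 PDIA3 was at 0.18 (adjusted p = 0.0541), while CALR kept its call, at 0.24 (adjusted p = 7.74e-05). CALR lost its call, at 0.15 to 0.18, when any of 4 different libraries was left out. These were WT fraction 8 replicate 2, D146N fraction 3 replicate 2, D146N fraction 3 replicate 3 and D146N fraction 4 replicate 3.

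When the counts of the 4 fractions of each genotype and replicate number were added up, each fraction weighing by its depth, 7 of the 10 mRNAs were higher in D146N, HSP90B1 was lower and 2 did not pass. In that comparison of 3 sums with 3, 14.9% of 20626 genes were called higher and 12.4% lower. PDIA6 rose by 0.45 ± 0.04 (log2 after TMM, SE, edgeR adjusted p = 2.46e-07), PDIA4 by 0.34 ± 0.05, HYOU1 by 0.33 ± 0.04 (adjusted p = 4.74e-06), PDIA3 by 0.29 ± 0.04, CALR by 0.28 ± 0.04 and P4HB by 0.17 ± 0.04. CANX, at 0.10 ± 0.04 (adjusted p = 0.0361), lost its call when any of 5 of the 6 sums was left out, all but WT replicate 3. The CANX call was also lost with median-of-ratios factors (edgeR adjusted p = 0.0836) and with DESeq2 (adjusted p = 0.0988). HSP90B1 fell by 0.17 ± 0.04 (adjusted p = 0.00151) after TMM and stood at -0.07 on library totals (adjusted p = 0.144). HSPA5, at 0.04 ± 0.03 (adjusted p = 0.386), was called on library totals, at 0.14. SEC61B stood at -0.10 ± 0.04 (adjusted p = 0.121) after TMM, at -0.16 and called without WT replicate 3, and at 0.00 on library totals. The sums hold fractions 3, 4, 7 and 8 alone and are not whole-cell RNA.

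**Figure D4:**
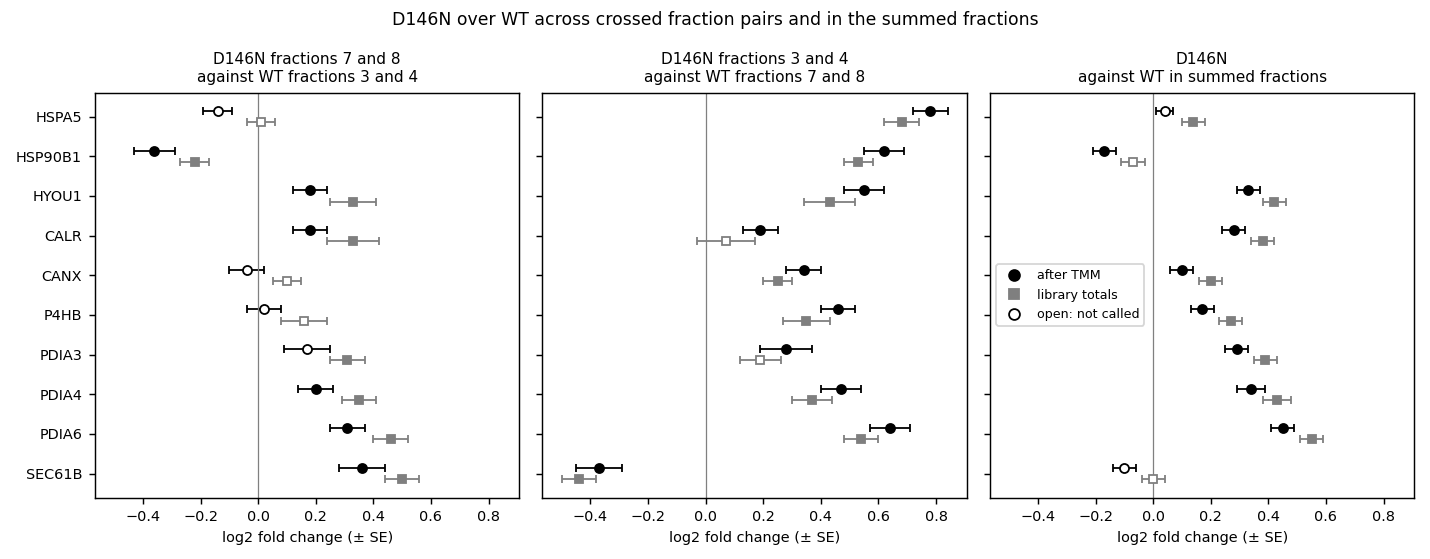
Log2 fold change of D146N over WT with its standard error for the 10 mRNAs, between crossed fraction pairs (left and middle) and in the summed fractions (right), after TMM (black circles) and on library totals (grey squares); open symbols were not called. PDIA6 lies right of 0 in all 3 panels, at 0.31, 0.64 and 0.45 after TMM, while HSP90B1 lies left of 0 on the left and right panels and right of 0 in the middle.

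The make-up of the 9 folding mRNAs among themselves also differed by fraction. HSPA5 held 14.8 ± 0.298 and 14.6 ± 0.265% of their summed CPM in D146N fractions 7 and 8, and 12.5 ± 0.239 and 12.9 ± 0.636% in D146N fractions 3 and 4 (SD, n = 3). It held 10.2 ± 0.208 and 9.99 ± 0.198% in WT fractions 7 and 8, and 15.9 ± 0.101 and 15.6 ± 0.0683% in WT fractions 3 and 4. CALR went the other way, with 10.5 ± 0.285 and 10.9 ± 0.296% in D146N fractions 7 and 8 and 12.6 ± 1.17 and 12.8 ± 0.389% in D146N fractions 3 and 4. CALR held 14.4 ± 0.489 and 16.2 ± 3.1% in WT fractions 7 and 8, where the wide SD of fraction 8 comes with replicate 3, and 9.14 ± 0.303 and 9.25 ± 0.176% in WT fractions 3 and 4.

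Across the 24 libraries, log2 CPM after TMM of the 9 folding mRNAs correlated with each other at Pearson r of 0.812 to 0.990 (median 0.954 over 36 pairs). SEC61B correlated with each of the 9 at r of -0.959 to -0.903. These values describe libraries that share their scaling and fall into separate groups, and carry no test. Among 3845 other genes with a mean of at least 10 CPM, those most like HSPA5 included AFDN (r = 0.9954), a junction scaffold, and RPN1 (r = 0.9945), a subunit of the oligosaccharyltransferase. RPN1 averaged 156 CPM in D146N fractions 7 and 8 and 11.6 CPM in D146N fractions 3 and 4, and in WT it averaged 7.7 CPM in fractions 7 and 8 against 166 CPM in fractions 3 and 4. Those most like SEC61B were NDUFAF8 (r = 0.9979), NDUFS5 (r = 0.9978) and COX6B1 (r = 0.9978), which encode small mitochondrial proteins of respiratory complexes or their assembly.

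Other genes of ER protein production were split between the 2 patterns. Of 38 other ER folding genes, 26 were higher and 8 lower in D146N fractions 7 and 8 against 3 and 4 (median log2 fold change 0.49), and 8 were higher and 25 lower in the same contrast of WT (median -0.61). For this list and those below, the shares of all genes called were 29.9% higher and 30.4% lower in D146N. In WT they were 34.7% higher and 39.2% lower. GANAB, a subunit of glucosidase II, had the pattern of HSPA5, at 0.86 ± 0.06 in D146N and -1.52 ± 0.06 in WT (log2 after TMM, SE), as did MLEC, the lectin malectin, at 1.21 ± 0.07 and -1.64 ± 0.08. PPIB, cyclophilin B, had the pattern of SEC61B, at -1.10 ± 0.07 in D146N and 1.48 ± 0.07 in WT.

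Among 18 genes of the translocon and signal peptidase, 9 were higher and 6 lower in D146N (median 0.28), and 6 higher and 10 lower in WT (median -0.46). The counts of 6 in 18 lie near the shares of all genes, 30.4% called lower in D146N and 34.7% called higher in WT. The 3 with the smallest p for the genotype difference all went with SEC61B. They were SSR4, a translocon-associated subunit, at -3.33 ± 0.07 in D146N and 3.67 ± 0.07 in WT, and the signal peptidase subunits SEC11C (-2.94 in D146N and 3.20 in WT) and SPCS1 (-2.24 and 2.79). The oligosaccharyltransferase, which adds N-glycans, divided evenly, with 6 of 12 higher and 6 lower in each genotype (median -0.20 in D146N and 0.42 in WT). Its subunits OST4 (-3.08 in D146N and 4.22 in WT), KRTCAP2 (-2.51 and 3.57) and DAD1 (-1.44 and 1.99) went with SEC61B.

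Of 18 genes of ER-associated degradation, 11 were higher and 3 lower in D146N (median 0.35), and 3 higher and 12 lower in WT (median -0.33). SEL1L (0.87 in D146N and -1.79 in WT) and the ATPase VCP (0.78 and -1.57) went with HSPA5, while their partner ligase SYVN1 went with SEC61B (-1.08 and 1.50). Of 13 sensors and factors of the unfolded protein response, 10 were higher and 1 lower in D146N (median 0.42), and 1 higher and 10 lower in WT (median -0.43). That 1 was DDIT3, which encodes the transcription factor CHOP, at -1.57 ± 0.09 in D146N and 2.32 ± 0.09 in WT, while CREB3L2 stood at 0.85 and -1.32 and MBTPS1, the site-1 protease, at 0.80 and -0.75. In the summed fractions, where 14.9% of all genes were called higher and 12.4% lower, 8 of the 13 were higher in D146N and none lower, with DDIT3 at 0.01 ± 0.08 (edgeR adjusted p = 0.953).

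Chaperones outside the ER also fell on both sides. The list holds cytosolic chaperones and the mitochondrial HSPD1 (0.66 in D146N and -1.26 in WT), HSPE1 (-2.22 and 2.99) and HSPA9 (0.43 in D146N, and lower in WT). Of 34 tested among 35 listed, 21 were higher and 6 lower in D146N (median 0.42), and 5 higher and 23 lower in WT (median -0.91). HSP90AB1, a cytosolic HSP90, stood at 0.98 ± 0.05 in D146N and -2.29 ± 0.06 in WT, while the prefoldin subunits PFDN5 (-3.48 in D146N and 3.77 in WT) and PFDN4 (-2.30 and 2.71) went with SEC61B. Of 15 mRNAs for small tail-anchored or small secretory membrane proteins, 3 were higher and 8 lower in D146N (median -0.44), and 10 higher and 2 lower in WT (median 0.54). CYB5A, cytochrome b5, stood at -3.90 ± 0.09 in D146N and 4.12 ± 0.09 in WT, VAMP8, a SNARE, at -2.81 ± 0.18 and 3.23 ± 0.19, and SERP1 at -1.45 ± 0.07 and 1.55 ± 0.06. Transcript lengths were not used here.

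**Figure D5:**
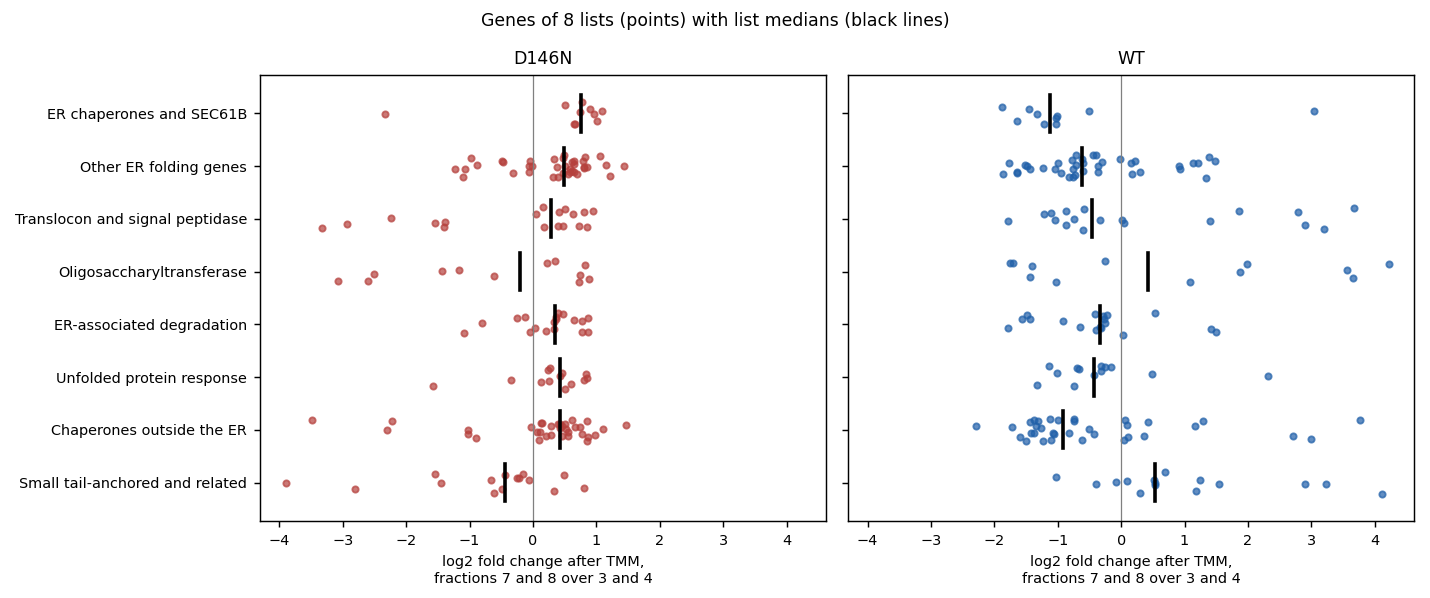
Log2 fold change after TMM of fractions 7 and 8 over 3 and 4 for the genes of 8 lists, in D146N (left, red) and WT (right, blue); points are genes and black lines are list medians. The list of the 10 mRNAs has medians of 0.76 in D146N and -1.12 in WT with SEC61B apart from the rest, and the small membrane protein list has medians of -0.44 and 0.54.

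Genes with the ERSE shown above did not all share the HSPA5 pattern. The 5 chaperone genes with the motif were all higher in D146N fractions 7 and 8 against 3 and 4 (median log2 fold change 0.67) and all lower in the same contrast of WT (median -1.33). The pattern was not limited to them. P4HB (0.77 in D146N and -1.21 in WT) and PDIA4 (0.75 and -1.02) had neither spelling in their windows and shared it. So did HYOU1 (1.09 and -1.45), with the ERSE-II alone, whereas SEC61B, with neither spelling, was opposite (-2.33 and 3.05). Of 11 other tested genes with the motif, 4 were higher, 1 was lower and 6 did not pass in D146N (median 0.37), where 29.9% of all genes were called higher and 30.4% lower. In WT, 8 of these 11 were lower, 1 was higher and 2 did not pass (median -0.40), where 39.2% of all genes were called lower and 34.7% higher. SERP1 was the gene opposite to HSPA5 in both genotypes, at -1.45 in D146N and 1.55 in WT. ALG12, a mannosyltransferase of the N-glycan pathway, stood at 0.67 in D146N and -1.62 in WT.

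Part of the counting is uncertain for PDIA3, whose processed pseudogene PDIA3P1 shares sequence with it. PDIA3P1 had 10.9 to 14.8 CPM in D146N fractions 7 and 8, 0.64 to 0.95 in D146N fractions 3 and 4, 0.259 to 0.654 in WT fractions 7 and 8, and 10.8 to 13.9 in WT fractions 3 and 4, high and low in the same groups as PDIA3. MIR3652 overlaps HSP90B1 and had 0.249 to 16.4 CPM, and other rows overlapping one of the 10 genes stayed at or below 0.896 CPM where they were in the table.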

How the data were processed

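The authors deposited 1 table of expected counts (estimated counts that need not be whole) for 24 libraries and 61853 gene rows, with no normalization. Of the nonzero values 73.3% were whole within 0.005. Alignment and counting tools listed in the submitters' processing notes are HISAT2 2.1.0, Bowtie2 2.3.5, featureCounts 1.5.1 and SAMtools, with hg38 as the build. Whether strand was used, and how reads that match several genes were shared, is not given in the sources used here. Libraries were grouped by their titles, which all 24 column names matched.

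Counts were rounded to whole numbers, since the tests had been planned for whole counts. CPM is the count divided by the library total and scaled to 1000000. The tests used edgeR 4.0.16 (R 4.3.3) with TMM, filterByExpr by group and 1 robust quasi-likelihood model over the 24 libraries with a mean for each of the 8 groups, with Benjamini-Hochberg adjustment over the 18916 genes tested and a call at an adjusted p under 0.05. The biological coefficient of variation was 13.7%. The SE of an edgeR log2 fold change was taken as its absolute value divided by the square root of the F statistic of its test. The difference of fraction contrasts is the mean log2 of fractions 7 and 8 minus that of 3 and 4 in D146N, less the same in WT. Sums of fractions were fitted apart. The SEC61B ratio was tested by an exact two-sided permutation test in scipy 1.17.1. Alternatives were library totals, median-of-ratios factors, DESeq2 1.42.0, no filter, no small and mitochondrial RNAs, a replicate block, only the groups compared, and each library left out. No molecular identifiers are mentioned in the labels, so counting errors cover counting alone.

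The 10 genes and the lists were chosen with earlier results of these data known. Named from each other list were the 3 genes with the smallest p in the difference of fraction contrasts, and for HSPA5 and SEC61B the 3 most correlated genes of at least 10 CPM, of which 1 is not reported here. SERP1 and ALG12 among the genes with the promoter motif, and the mitochondrial chaperones, were named after their values were seen. Gene positions and promoter windows came from RefSeq tables of GRCh38.p14, the build of hg38. P-values measure the spread between libraries.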

Additional observations from a re-analysis of the deposited data

Results flagged for a closer look

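The contrast of fractions 7 and 8 with fractions 3 and 4 differed between D146N and WT in the test of the difference itself for each of the 10 mRNAs. The difference (D146N minus WT, log2 after TMM) was 2.83 for HSPA5, 2.54 for HYOU1, 2.34 for PDIA6, 2.31 for HSP90B1, 1.98 for P4HB, 1.90 for PDIA3, 1.77 for PDIA4, 1.67 for CANX and 1.01 for CALR. It was -5.38 for SEC61B, which stood at 0.24 on library totals. Such a difference was called for most genes, with 14585 of 18916 past the threshold. Genotype and a different numbering of the fractions cannot be told apart from the labels.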

How the results depend on the processing

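The number of the 10 mRNAs called stayed within 1.5 times its value in every comparison and under every alternative run, and with libraries left out it ran from 5 to 6 for D146N fractions 7 and 8 against WT fractions 3 and 4, from 9 to 10 for D146N fractions 3 and 4 against WT fractions 7 and 8, and from 7 to 9 in the summed fractions. Among called values, the direction turned for SEC61B alone and on library totals alone, at -0.06, -0.11, 0.10 and 0.20 for D146N against WT in fractions 3, 4, 7 and 8, at 0.59 for D146N fractions 7 and 8 against 3 and 4, and at 0.24 for the difference of the fraction contrasts, where the scaling itself moves the median of all genes. With HSPA5 in place of the mean of the other 9, the SEC61B log2 ratio (D146N minus WT) was 3.86, 3.71, -4.55 and -4.29 in fractions 3, 4, 7 and 8, and the cause was not tested. Of 140 single values for each alternative, 129 kept their call and direction on library totals, 136 under DESeq2, 137 under median-of-ratios factors, 139 with no filter (HYOU1 in D146N fractions 7 and 8 against WT fractions 3 and 4 lost its call, adjusted p = 0.0665), and all 140 without small and mitochondrial RNAs. With only the groups compared 116 of 120 did, and with a library or sum left out 1248 of 1260. Same-numbered libraries of a genotype did not deviate together (correlation of deviations -0.15 to 0.07 over 36 pairs), and the replicate block kept 139 of 140 values and lost CANX in the summed fractions (0.10, adjusted p = 0.0848). Counts of 116 to 283 in the low fractions of PDIA3, PDIA4, PDIA6 and HYOU1 limit their precision.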
